A study of Rattus norvegicus with 3 samples.

Results

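RNA levels of a small group of innate immune receptors, the adaptors they signal through and the kinase Syk were compared in soft tissue around an implant, around a natural tooth and at a healed extraction site of the rat jaw. The group has 10 genes (Trem2, Trem1, Tyrobp, Fcer1g, Clec7a, Cd300c2, Fcgr1a, Fcgr2b, Fcgr3a and Syk), of which 9 were measured, by 10 probe sets (sets of short probes that together read 1 transcript), among 14217 named genes on the array. The genes were picked by function and by symbol in the array's annotation, and selected on these same arrays with the intensities of Trem2, Tyrobp and Clec7a in implant and tooth tissue already known. Their differences are therefore given as a description, with no test. Trem1 has no probe set of its own in the annotation used and was not analysed here.

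All animals were wild-type male Sprague Dawley rats aged 9 weeks at harvest. For peri-implant connective tissue (PICT) an upper first molar was extracted at 5 weeks of age, a titanium alloy implant was set at once into the socket, on the left side only, and tissue was taken 4 weeks later. Oral mucosa connective tissue (OMCT) came from the healed extraction wound after the same 4 weeks with no implant, and periodontal connective tissue (PCT) from around an intact upper first molar, so that surgery was done for PICT and OMCT and is not described for PCT. The tissue was cut out by laser microdissection, and 1 array was run per tissue; the sources used here do not say how many animals stand behind each array. The design text once writes mice for PCT while the sample labels give rat for all 3 samples, which were treated as rat.

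Most of these receptors carry no signalling motif of their own. As background, Trem2, Trem1 and other receptors with short tails pair in the membrane with Tyrobp (DAP12), and Fcgr1a and Fcgr3a pair with Fcer1g, the common Fc receptor gamma chain. Both adaptors carry an ITAM, a pair of spaced tyrosines that Src family kinases phosphorylate and to which Syk then binds. Clec7a (dectin-1) carries a shortened version of this motif in its own tail, while Fcgr2b carries the opposite kind, an ITIM, which recruits phosphatases and damps the signal. Macrophages, monocytes, neutrophils, osteoclasts and other leukocytes use these genes to sense lipids, fungal wall glucans and antibody-coated particles.

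The arrays were not on one scale as deposited. The median probe set had an intensity of 34.3 in PCT, 57.4 in OMCT and 56.5 in PICT. On the log2 scale the median was 0.60 lower in PCT than in PICT, whereas the 9 hybridisation controls, which are added in equal amounts, were 0.21 lower. Differences below are therefore relative to the array medians, on the scale log2(intensity + 8.56), with the as-deposited value named where it alters a statement. Scaled by the hybridisation controls, a difference from PCT would fall between the relative and the as-deposited value. The ratio of 3' to 5' probe sets of hexokinase, which grows as RNA is shortened, was 2.80 in PCT, 1.97 in OMCT and 1.58 in PICT, and its part in the differences was not tested. The labels name connective tissue, but the basal keratin Krt5 had an intensity of 9565 in PCT, 8595 in OMCT and 7965 in PICT, so epithelial transcripts were present on every array. Other epithelial markers were less even. Krt1 had an intensity of 1772 in PCT, 112 in OMCT and 4780 in PICT, and Loricrin 2447, 58.4 and 3280. Krt15 was lowest in PICT, at 951 in PCT, 838 in OMCT and 186 in PICT. With 1 array per tissue no spread between animals exists. As a guide to probe error only, the log2 difference varied between probe sets of 1 gene with an SD of 0.49 in each of the 3 comparisons, over 4525 genes with several probe sets.

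The adaptors were bright in both operated tissues and much dimmer around the tooth. Tyrobp had an intensity of 45.1 in PCT, 1005 in OMCT and 1121 in PICT. PICT and OMCT were thus close together and PCT stood apart, 13.9-fold below PICT and 12.3-fold below OMCT, while PICT and OMCT differed by 1.13-fold. On its own array Tyrobp lay at percentile 97.2 of all probe sets in PICT, 56.0 in PCT and 96.7 in OMCT. Fcer1g, the gamma chain, had an intensity of 175 in PCT, 1706 in OMCT and 1356 in PICT. It was the single measured gene of the group that was brighter in OMCT than in PICT, by 1.24-fold (log2 difference of PICT minus OMCT -0.31), which is less than the probe SD. PCT was lower than PICT by a log2 difference of 2.30 and lower than OMCT by 2.60. The gamma chain remained well above the median in PCT, at percentile 83.4 of that array, and its contrast with the operated tissues was smaller than that of Tyrobp.

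Trem2, a receptor for lipids, lipoproteins and cell debris on macrophages and osteoclasts, was read by 2 probe sets. The brighter, 1382513_at, had an intensity of 1.58 in PCT, 108 in OMCT and 241 in PICT. In PCT this is below the highest of 3 bacterial probe sets taken as negative controls on that array (5.71), so this probe set was not above background there. Against that control, relative to the array medians and with no pseudocount, it was at least 25.6-fold higher in PICT and at least 11.3-fold higher in OMCT. The second probe set, 1392759_at, had an intensity of 6.01 in PCT, 118 in OMCT and 146 in PICT. It was just above the same control in PCT, and on the scale with the pseudocount it was 6.99-fold higher in PICT and 5.65-fold higher in OMCT. Both probe sets put PICT first and PCT last, with log2 differences between PICT and PCT of 4.02 and 2.81 and between OMCT and PCT of 2.90 and 2.50. With PCT set to the control, the first probe set's 4.02 becomes 3.52 and its 2.90 becomes 2.41. They differed on the implant against the healed site, where the first gave 1.12 (2.17-fold) and the second 0.31 (1.24-fold); the mean of both was 0.71, below 2-fold.

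The RefSeq start region of Trem2 (GRCr8, chr9:20151730-20152029, minus strand; 250 bases before to 50 after the start) is shown because Trem2 was read at or near background around the tooth by both of its probe sets. Capitals mark a match to TGANTCA, a loose form of the AP-1 motif that allows any middle base (N). Its first base lies at position -3 from the start. The middle base here is A, whereas the usual AP-1 site has C or G there.
Trem2: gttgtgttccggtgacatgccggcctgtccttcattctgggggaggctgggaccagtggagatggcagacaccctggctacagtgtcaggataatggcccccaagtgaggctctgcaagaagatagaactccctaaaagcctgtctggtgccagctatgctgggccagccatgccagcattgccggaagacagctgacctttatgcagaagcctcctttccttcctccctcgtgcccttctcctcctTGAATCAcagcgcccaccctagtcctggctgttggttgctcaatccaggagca
TGANTCA, searched on both strands, occurs in 7.33% of 33469 promoters of this length. GGAAGT, a longer form of the core GGAA that PU.1 and other ETS factors share, has no match in this Trem2 window. It occurs in 22.6% of all promoters. The shorter core GGAA was not searched for, and it does occur in this window, so the lack of GGAAGT does not mean that an ETS core is absent.

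Cd300c2, an activating receptor of the CD300 family on myeloid cells, had an intensity of 59.7 in PCT, 799 in OMCT and 1347 in PICT. The order of the tissues was that of Trem2. PCT lay 3.71 log2 units below PICT (13.1-fold) and 2.94 below OMCT (7.68-fold). PICT exceeded OMCT by 0.77 (1.70-fold), more than the probe SD but under 2-fold. One probe set reads the gene, so no other probes check the value.

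Clec7a, the receptor for beta-glucans of fungal walls, set the implant apart most clearly. It had an intensity of 36.5 in PCT, 274 in OMCT and 876 in PICT. OMCT took a middle place, 3.18-fold below PICT (log2 difference 1.67) and 4.07-fold above PCT (2.03), and PICT and PCT differed by 12.9-fold (3.69). Among the 9 genes this was the widest difference between PICT and OMCT. It stayed between 1.53 and 1.71 under 6 other ways of scaling, setting the pseudocount and joining probe sets. Joining probe sets could not move it, because 1 probe set reads the gene, and no other probes check the value. The RefSeq start region of Clec7a (GRCr8, chr4:164599778-164600077, minus strand) is shown because of this widest difference.
Clec7a: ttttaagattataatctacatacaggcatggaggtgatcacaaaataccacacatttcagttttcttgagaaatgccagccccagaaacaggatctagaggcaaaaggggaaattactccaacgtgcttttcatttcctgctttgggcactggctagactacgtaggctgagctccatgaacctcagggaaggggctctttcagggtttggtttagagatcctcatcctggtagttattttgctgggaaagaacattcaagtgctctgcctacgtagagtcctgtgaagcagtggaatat
It holds no match to TGANTCA or GGAAGT, hence no capitals.

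The Fc receptors, which bind the constant part of antibodies, did not share 1 pattern. Fcgr1a, the high-affinity receptor for IgG, had an intensity of 64.5 in PCT, 723 in OMCT and 870 in PICT. It followed the adaptors, with PICT and OMCT 0.28 apart on the log2 scale and PCT 2.99 below PICT and 2.70 below OMCT. Fcgr2b, the inhibitory receptor for IgG, had an intensity of 58.4 in PCT, 284 in OMCT and 550 in PICT. OMCT lay between the other tissues, 0.95 below PICT (1.93-fold, just under the 2-fold rule) and 1.51 above PCT, and PICT was 2.46 above PCT.

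Fcgr3a, the activating receptor also known as CD16-2 or Fcgr4 in rodents, had an intensity of 25.3 in PCT, 43.2 in OMCT and 105 in PICT. Here the implant tissue stood alone. PICT was 1.15 above PCT and 1.16 above OMCT on the log2 scale, each about 2-fold (2.21 and 2.23), while OMCT minus PCT was -0.01 on the relative scale and 0.61 as deposited. Fcgr3a lay at percentile 43.9 in PCT and 44.0 in OMCT, below the median of both arrays, and with a pseudocount at the median intensity its differences of PICT from PCT and OMCT were 0.72 and 0.76. The low-affinity Fc receptor genes resemble each other in sequence, and 2 probe sets that the annotation assigns jointly to Fcgr2a and Fcgr2al1 were left out. How far the Fcgr2b and Fcgr3a probes also read those relatives was not tested. The RefSeq start region of Fcgr3a (GRCr8, chr13:85782386-85782685, plus strand) is shown because its level separated the implant from both other tissues. Capitals mark GGAAGT, here as its reverse complement ACTTCC, whose first base lies at position -56.
Fcgr3a: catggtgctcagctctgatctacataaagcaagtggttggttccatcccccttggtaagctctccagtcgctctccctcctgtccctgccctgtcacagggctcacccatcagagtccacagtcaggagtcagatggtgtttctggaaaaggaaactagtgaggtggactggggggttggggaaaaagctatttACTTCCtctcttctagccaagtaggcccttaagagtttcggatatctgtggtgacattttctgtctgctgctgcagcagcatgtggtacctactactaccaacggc
Of the 6 genes of the group with a start region in the table, Syk also holds GGAAGT, at position -51. Trem1, Clec7a and Cd300c2 hold neither GGAAGT nor TGANTCA.

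Syk, the kinase that all of these receptors except Fcgr2b signal through, had the narrowest range over the 3 tissues. It had an intensity of 67.3 in PCT, 104 in OMCT and 143 in PICT. PICT exceeded PCT by 0.39 and OMCT by 0.45 log2 units, and OMCT minus PCT was -0.05, all within the probe SD. As deposited they were 0.997, 0.42 and 0.57, so the direction of OMCT minus PCT rests on the scaling.

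**Figure D1:**
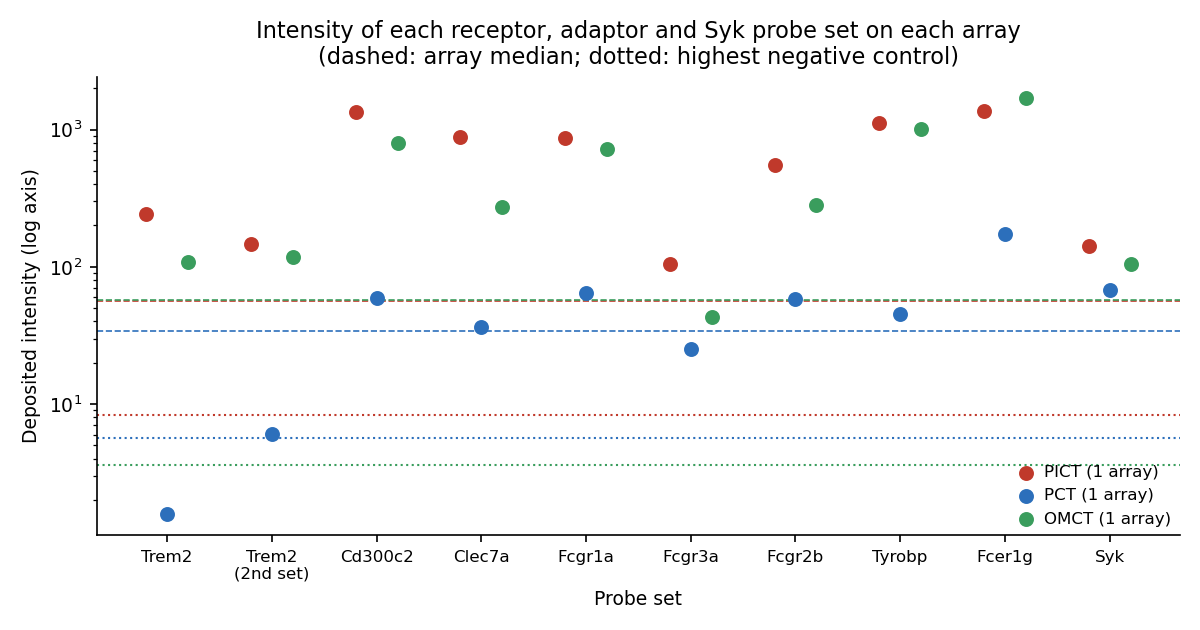
Deposited intensity (log axis) of each probe set of the 9 genes in PICT, PCT and OMCT, 1 point per array; dashed lines are the array medians and dotted lines the highest negative control of each array. PCT is lowest for each of the 10 probe sets, and Trem2 in PCT (1.58) lies below its control line.

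By a rule of at least 2-fold with the brighter array at or above its own median, 8 of the 9 genes were higher in PICT than in PCT and 0 were lower, Syk being neither. Over all 14217 genes 3.98% were higher and 3.37% lower; as deposited the group again had 8 higher genes, against 14.1% of all genes (2009 higher and 128 lower, where the relative scale gave 566 and 479). Since this contrast was used to choose the group, nothing is read from that count. The median difference of the 9 genes was 2.99, beside -0.13 over all genes.

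Between OMCT and PCT 7 genes were higher and 0 lower, with Fcgr3a and Syk neither, beside 5.66% and 4.81% of all genes; as deposited the count was also 7, beside 17.6% (2503 higher and 298 lower, against 805 and 684). The median was 2.60, beside -0.08 over all genes. These comparisons share the PCT array, on which every gene of the group was at its lowest as deposited, so they are not separate evidence.

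Between PICT and OMCT 3 genes (Clec7a, Fcgr3a and Trem2) were higher and 0 were lower, beside 4.16% higher and 4.46% lower over all genes; as deposited the same count of 3 stood beside 3.98%. The median was 0.77, beside -0.04 over all genes. Clec7a alone was also past 3-fold. This comparison uses the PICT array, on which the intensities of Trem2, Tyrobp and Clec7a were known when the group was selected. The count, which includes Clec7a and Trem2, is therefore a description and not separate evidence.

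**Figure D2:**
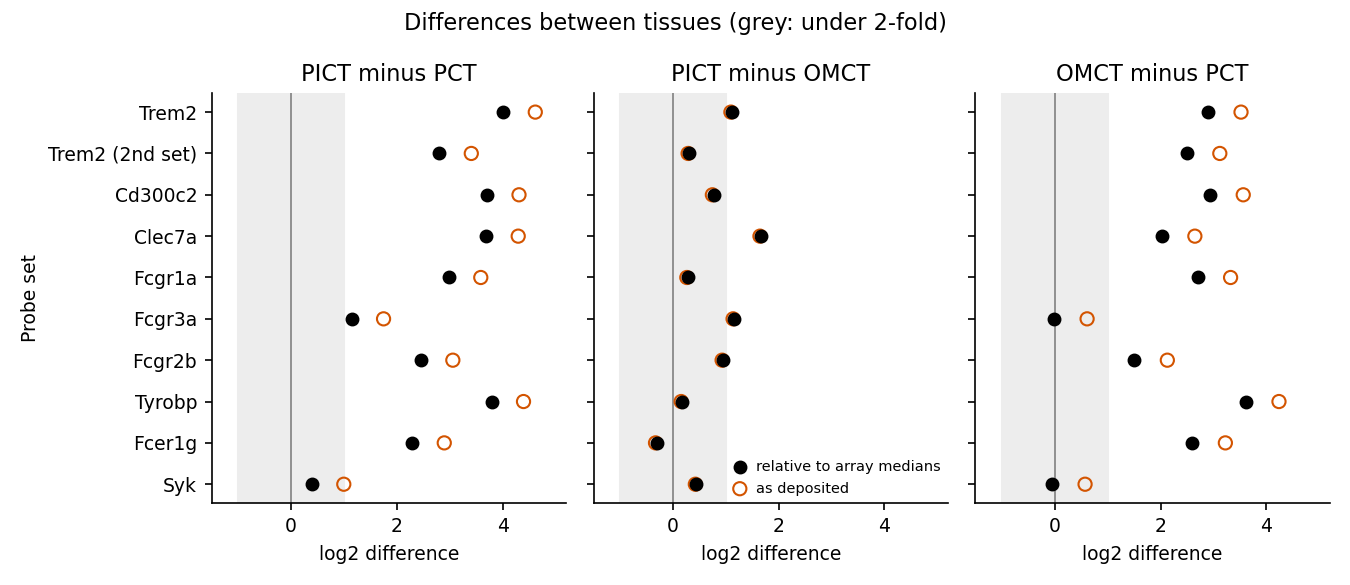
Log2 difference of each probe set in PICT minus PCT, PICT minus OMCT and OMCT minus PCT, relative to the array medians (black) and as deposited (open circles); grey marks differences under 2-fold. Differences from PCT are larger as deposited, while PICT minus OMCT hardly depends on scaling, and there Clec7a, Fcgr3a and the first Trem2 probe set pass 2-fold.

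Receptors and adaptors did not differ between implant and healed site by the same factor. In PICT minus OMCT the difference exceeded that of Tyrobp by 1.49 log2 units for Clec7a, 0.98 for Fcgr3a, 0.94 for Trem2, 0.77 for Fcgr2b and 0.59 for Cd300c2, and by 0.11 for Fcgr1a. The values for Trem2 and Fcgr3a rest on the settings named above. For Trem2 the value also rests on the first probe set, since the second was at 0.31 in PICT minus OMCT, beside 0.18 for Tyrobp. Each of these gaps carries the probe error of both genes. In OMCT minus PCT the value less that of Tyrobp was -1.59 for Clec7a and -2.11 for Fcgr2b. For Trem2 it was -0.72, but with a pseudocount of 1 the order turned, with Trem2 at 4.67 and Tyrobp at 3.72.

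Markers of leukocytes moved with the group. By the same rule 9 of 9 pan leukocyte markers passed in PICT over PCT and 9 in OMCT over PCT, among them Ptprc (CD45), with an intensity of 11.3 in PCT, 290 in OMCT and 280 in PICT. Their summed intensity was 771 in PCT, 5892 in OMCT and 5805 in PICT. In tissue of mixed cells a higher number of leukocytes and more RNA per leukocyte cannot be told apart. Between PICT and OMCT 0 of the 9 pan leukocyte markers passed 2-fold, with a range of -0.78 to 0.61, and Clec7a, Fcgr3a, Trem2, Fcgr2b and Cd300c2 were above that whole range; the second Trem2 probe set, at 0.31, was within it.

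Macrophage markers differed from the group in PICT minus OMCT. The complement genes C1qb at -2.54, C1qa at -1.96 and C1qc at -1.58, the membrane protein Ms4a7 at -2.31 and Adgre1 (F4/80) at -1.33 were lower in PICT, so that 5 of 13 measured markers were lower and 0 higher. Over the 12 markers above the array median on at least 1 array the median was -0.77 and the highest value 0.09 (Lyz2). Of the 9 receptor, adaptor and kinase genes, 8 lay above all 12 of these markers, the exception being Fcer1g. Tyrobp at 0.18, Fcgr1a at 0.28 and Syk at 0.45 exceeded Lyz2 by less than the probe SD, as did the second Trem2 probe set at 0.31. Without the C1q genes, left out after their values were seen, the median was -0.57. In PICT minus PCT, the comparison used to choose the group, the macrophage median was 1.62 (2.35 without C1q) and the highest marker was Mrc1 at 3.54. Beside these stood Tyrobp at 3.79, Cd300c2 at 3.71, Clec7a at 3.69 and Trem2 at 4.02, which is 3.52 with PCT at the control and 2.81 by the second probe set. Nothing is read from that order. In OMCT minus PCT the macrophage median was 2.46, and 0 of the 9 genes lay above all markers while Fcgr2b, Fcgr3a and Syk lay below all of them. The summed intensity of the 13 markers was 1241 in PCT, 12064 in OMCT and 9754 in PICT, and the part of macrophage number in the group's differences was not tested.

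Neutrophil markers were also higher in PICT than in OMCT, for 5 of 8 measured genes with 0 lower. S100a8 differed by 3.28, S100a9 by 1.97, Cxcr2 by 1.63, Il1r2 by 1.19 and Csf3r (the receptor for G-CSF) by 1.08, and Mmp8 and Camp, dim on all arrays, had an intensity of 38.3 and 39.4 in PICT and were not above the negative control in PCT and OMCT. Cxcr1, below the median on all arrays, went the other way at -0.72. The summed intensity of the 8 markers was 712 in PCT, 1148 in OMCT and 4980 in PICT. Most of the PICT sum came from S100a8 at 1376 and S100a9 at 2794. In OMCT minus PCT 1 marker was higher, S100a9 at 1.52, and 2 were lower, S100a8 at -1.81 and Cxcr2 at -1.02. S100a8 and S100a9 are also made by keratinocytes. Neutrophils carry Clec7a and Fcgr3a, and the part of neutrophil RNA in their difference was not tested.

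Other cells that use these adaptors gave the following values. Of 5 measured osteoclast markers 2 passed in PICT over PCT, Ctsk (cathepsin K) at 1.42 and Tnfrsf11a (RANK) at 1.24. In OMCT over PCT 3 passed, Ctsk at 2.26, Tnfrsf11a at 1.36 and Acp5 at 1.02. Between PICT and OMCT 0 were higher or lower. Of 9 mast cell markers, 4 in PCT, 4 in OMCT and 8 in PICT were not above the highest negative control, including Ms4a2, the beta chain of the IgE receptor, in PICT and PCT. That control was itself 5.71 in PCT, 3.60 in OMCT and 8.36 in PICT, so these counts do not compare levels between arrays. All 9 lay below the median on every array. Of those above the control in PCT, Cpa3 had an intensity of 33.3 in PCT, 2.75 in OMCT and 6.33 in PICT. Cma1 had 19.5, 1.88 and 1.85, and Tpsab1 23.6, 14.2 and 6.87. Hdc was also highest in PCT, at 6.81, 5.00 and 5.89, whereas Tpsb2 was highest in OMCT, at 9.96, 17.1 and 1.32. Among NK and T cell genes, which reach Tyrobp and Fcer1g through NK receptors, the natural killer receptor Ncr1 was not above the control on any array, and Klrk1 (NKG2D) had an intensity of 16.3 in PCT, 41.0 in OMCT and 95.7 in PICT. The list counted 2 higher and 1 lower of 12 genes in PICT minus OMCT. In the same comparison epithelial markers had 4 higher and 1 lower of 8. Higher were Loricrin at 5.64, Krt1 at 5.33, Krt10 at 2.04 and Cdh1 at 1.59, and lower was Krt15 at -2.10. Fibroblast markers had 0 higher and 3 lower of 7, and endothelial markers 0 higher and 3 lower of 5. Dendritic and B cell markers had 0 either way of 3 each. The part of all these cell types in the values of the receptor genes was not tested.

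**Figure D3:**
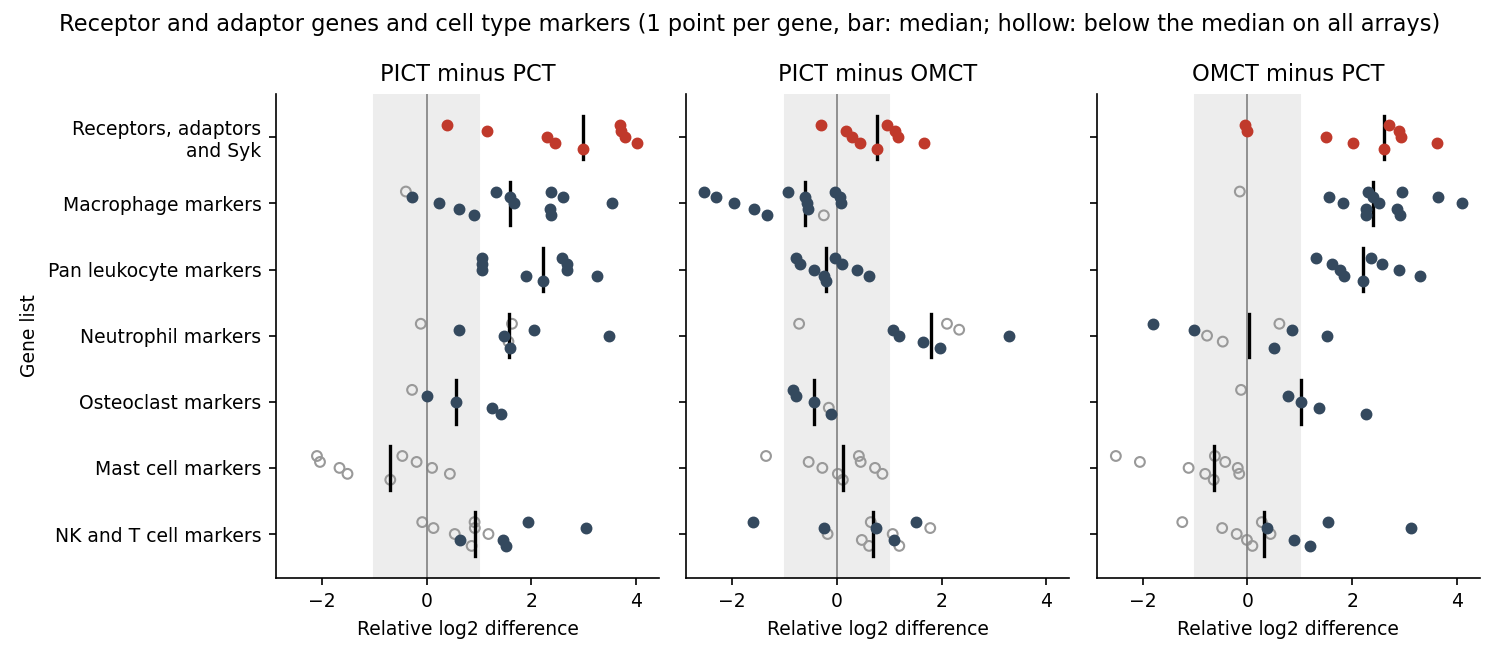
Relative log2 difference of each gene of the receptor, adaptor and Syk group (red) and of cell type marker lists, in the same comparisons; bars are list medians and hollow points are genes below the median on all arrays. In PICT minus OMCT the red points lie mostly to the right of the macrophage markers, and most neutrophil markers lie further right, with a list median of 1.80.

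The rest of the pathway followed in part. A list of inhibitory receptors and phosphatases, which also holds Dok adaptors and the ubiquitin ligases Cbl and Cblb, had 17 measured genes. Of these, 10 were higher in PICT than in PCT and 0 lower (median 1.41), and 11 were higher in OMCT than in PCT (median 1.40). Between PICT and PCT the largest were Lilrb4 at 3.41 and Pilra at 3.41, inhibitory receptors of myeloid cells, the C-type lectin Clec4a3 at 3.08 and Cd300a at 2.78, an inhibitory relative of Cd300c2. Of the phosphatases, Inpp5d (SHIP1, which acts behind Fcgr2b) differed by 1.41, whereas Ptpn6 (SHP-1) at 0.75 and Ptpn11 (SHP-2) at 0.05 did not pass. Between PICT and OMCT the inhibitory list had 2 higher and 0 lower genes with a median of -0.03, namely Cd300a at 1.34 and the ubiquitin ligase Cblb, which marks Syk and other kinases for removal, at 1.07.

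Among 20 measured kinases and adaptors that act around Syk, 7 passed upward and 0 downward in PICT against PCT (median 0.35). Lcp2 (SLP-76) at 2.37, the Src family kinase Fgr at 2.09, Pik3ap1 (an adaptor for PI 3-kinase) at 1.85 and the GTPase Rac2 at 1.75 were largest. Between PICT and OMCT 3 were higher and 0 lower (median 0.12): Blnk, an adaptor that Syk phosphorylates, at 1.41, Lcp2 at 1.13 and Pik3ap1 at 1.04. Between OMCT and PCT 6 were higher and 0 lower (median 0.34), led by the Src family kinase Lyn at 1.82. Card9, which carries the Clec7a signal to NF-kB, had an intensity of 11.8 in PCT, 34.4 in OMCT and 40.5 in PICT, below the median of each array, and differed by 0.67 in PICT minus PCT and 0.21 in PICT minus OMCT.

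Genes tied to Trem2 by ligand, cleavage or lipid handling split. Of 18, 7 passed upward and 1 downward in PICT against PCT (median 0.62), and 3 upward and 1 downward against OMCT (median 0.09). At the healed site, OMCT against PCT, 9 passed upward and 0 downward (median 0.945). The same 3 genes that passed in PICT minus OMCT were also among the largest against PCT: Spp1 (osteopontin) at 1.90 and 5.24, Fabp4 (a fatty acid carrier) at 1.80 and 3.31 and Plin2 (a lipid droplet coat protein) at 1.31 and 3.0. Of the ligands, Apoe differed by 0.94 in PICT minus PCT and -0.21 in PICT minus OMCT, and Clu (clusterin) was lower in PICT, at -1.77 and -1.07. The proteases that cleave Trem2 from the surface, Adam10 at -0.02 and 0.84 and Adam17 at 0.12 and 0.26, were neither higher nor lower. Gpnmb, a membrane glycoprotein of lipid-laden macrophages, followed the adaptors, at 2.32 and 0.19.

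A further list held other receptors that signal through an ITAM, a hemITAM or a partner chain, and some of those chains. Of its 10 measured genes 3 lay above the array median on any array. By the rule 1 was higher in PICT than in PCT and 1 in PICT than in OMCT, in both cases Klrk1, at 1.46 and 1.10. Hcst (DAP10, a partner of Klrk1 that signals through PI 3-kinase) differed by 0.85 and 0.76. Cd247, the zeta chain of the T cell receptor, was lower in OMCT than in PCT at -1.87. Many relatives of the group, such as Oscar and Clec4e, have no probe set under their name in the annotation used and were not analysed here.

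**Figure D4:**
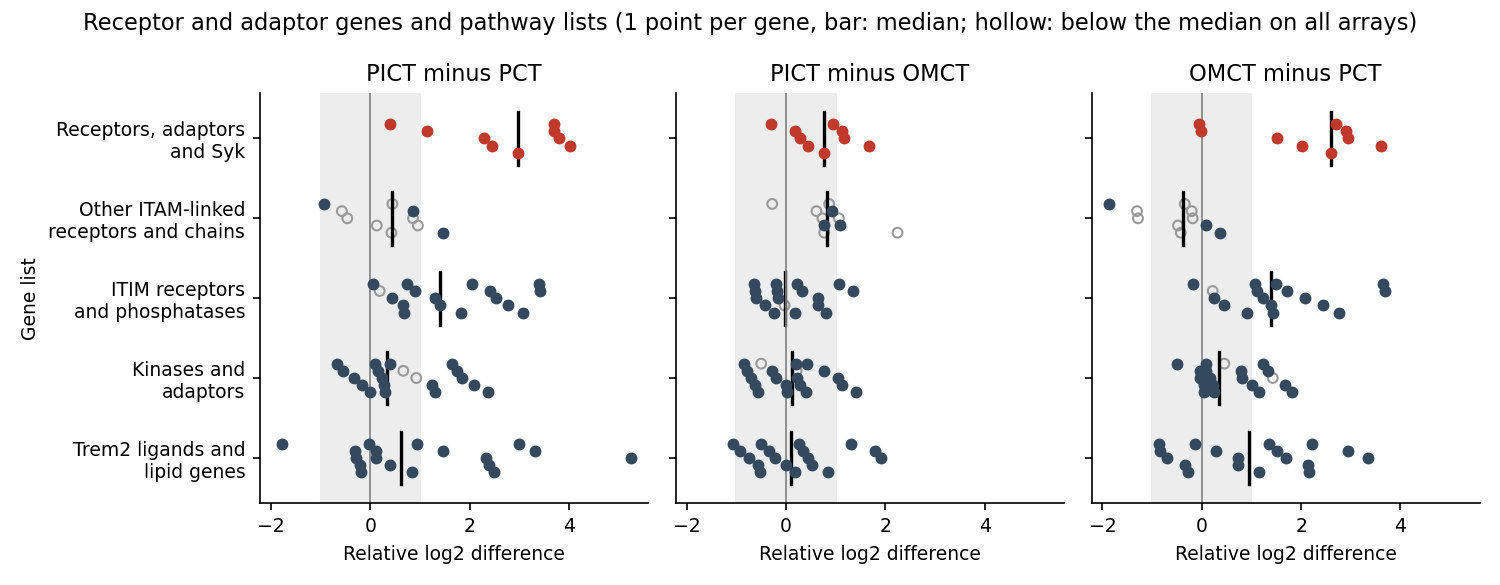
Relative log2 difference of each gene of the receptor, adaptor and Syk group (red) and of 4 pathway lists in the same comparisons, with list medians as bars and hollow points for genes below the median on all arrays. Genes of the list of inhibitory receptors and phosphatases, which also holds Dok adaptors and Cbl ligases, lie to the right against PCT (median 1.41 in PICT and 1.40 in OMCT). In PICT minus OMCT they lie around 0.

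The genes whose pattern over the 3 arrays was most like that of Trem2 and Tyrobp were sought among 9850 other genes that reached the median on at least 1 array, by the distance between gene-centred relative log2 values. Nearest to Trem2 were Smpdl3a, a phosphodiesterase of the sphingomyelinase family, at a distance of 0.31, Bcl2a1, a survival factor of leukocytes, also at 0.31, the inhibitory receptor Lilrb4 at 0.45, Arhgap30 at 0.50 and Il7r, the interleukin 7 receptor, at 0.52. Smpdl3a had an intensity of 84.3 in PCT, 900 in OMCT and 1681 in PICT. Since the Trem2 probe set used lay below the negative control in PCT, these distances rest on an inexact value. Nearest to Tyrobp were Cybb, the catalytic subunit of the phagocyte oxidase, at 0.23, the macrophage pore protein Mpeg1 at 0.29, Pilra at 0.33, Ptprc at 0.38 and Ms4a6a at 0.38. Likeness over 3 arrays is a description of these arrays.

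**Figure D5:**
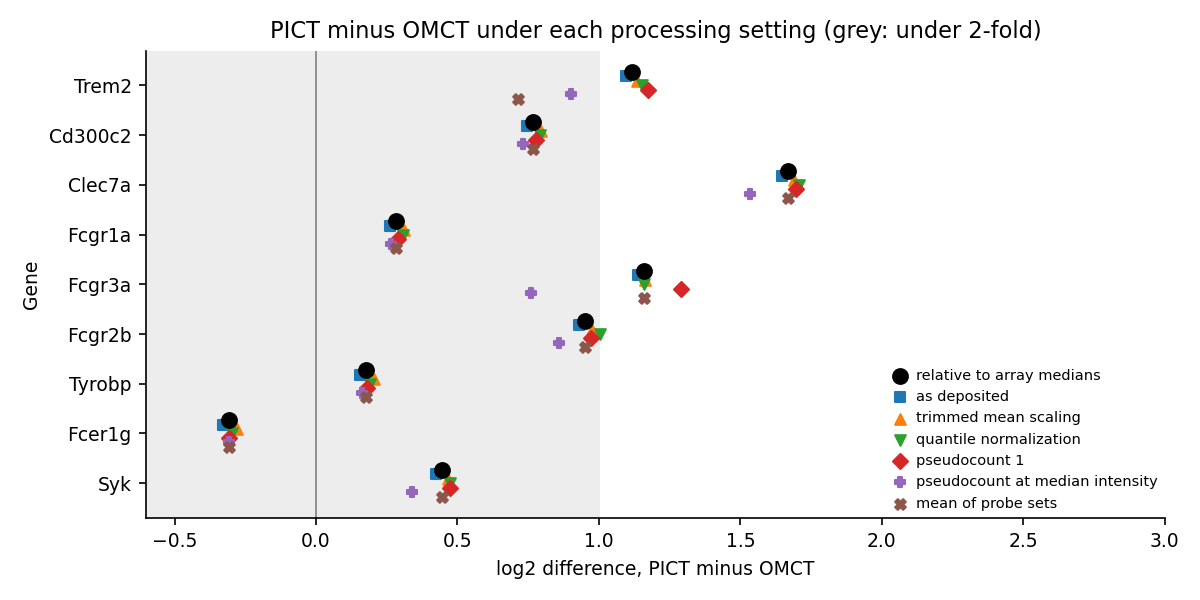
Log2 difference of PICT minus OMCT for each of the 9 genes under the relative scale (black) and 6 other settings; grey marks differences under 2-fold. Clec7a stays above 2-fold throughout (1.53 to 1.71), whereas Trem2 and Fcgr3a fall below it under at least 1 setting (lowest 0.71 and 0.76) and Fcer1g stays below 0.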

How the data were processed

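The deposited table gives linear intensities, 1 for each probe set and array, from 0.0124 to 13104 over 31099 probe sets; the authors labelled amplified RNA with the GeneChip 3'IVT Express kit, per the labels. The sources used here do not state how probes were summarised or arrays scaled. Gene symbols came from the platform annotation of 2016: 20826 probe sets with 1 symbol were used, 436 with several and 9831 with none were not. All 9 measured genes of the group matched RefSeq (GRCr8) by gene ID. Protein sequences were not used here.

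Computed here (Python 3.11.15, pandas 2.3.3, numpy 2.4.6): log2(intensity + 8.56), the 20th percentile of all values being the pseudocount, minus the array median over non-control probe sets; a gene's probe set was that with the highest mean. A fold on this scale understates differences of low genes. The background of an array was its highest bacterial TrpnX control. TrpnX was taken as a negative control because it is dim on all arrays while other bacterial controls are bright. The labels do not list the spikes used, so this background is an assumption. No test, SD or p-value between tissues exists with 1 array each, and the number of arrays limits the precision. Named genes were all of the group and, per list, those past 2-fold, at most 4 by size, plus defining markers; Card9, Ptpn6, Ptpn11, Inpp5d, the Trem2 ligands and proteases, Gpnmb and Hcst were added to the named genes with values in view. The members and lists were chosen with earlier results of these data known. Alternatives were as-deposited values, trimmed mean and quantile scaling, other pseudocounts, mean of probe sets, other filters and folds. The steps were also run on simulated arrays with known changes in genes above the median that a single probe set reads. The simulated noise was below the probe SD of these data. That run checks the code and says nothing on the precision of dim genes such as Trem2 in PCT.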

Additional observations from a re-analysis of the deposited data

How the results depend on the processing

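Of the counts of genes past the rule, those against PCT kept within 1.5 times of 8 and 7 under every alternative tried (7 to 8 in PICT, 6 to 7 in OMCT), and 0 genes were lower in any. The count of 3 in PICT minus OMCT was 1 with a pseudocount at the median intensity (Clec7a), 5 at 1.5-fold and 1 at 3-fold. The median difference of the group against PCT was 3.59 in PICT and 3.23 in OMCT as deposited, and 2.31 and 1.57 with the pseudocount at the median intensity. Over all genes, 566 higher and 479 lower in PICT against PCT became 2009 and 128 as deposited, 1276 and 1508 at 1.5-fold, 261 and 128 at 3-fold, 345 and 272 with a filter at the 75th percentile, 657 and 945 without a filter and 399 and 130 with the pseudocount at the median. For OMCT against PCT 805 and 684 became 2503 and 298, 1656 and 1514, 371 and 312, 551 and 435, 933 and 1167, and 639 and 333 in that order. For PICT against OMCT 591 and 634 became 566 and 660, 1287 and 1599, 253 and 210, 370 and 415, 835 and 901, and 352 and 375. Differences of Trem2 from PCT moved most, from 2.19 to 5.84 in PICT and 1.29 to 4.67 in OMCT; the PCT value of the probe set that represents it is below background. No gene at or past 2-fold changed direction. No paired analysis was possible because each tissue has 1 array, and no replicate could be left out. Signal over background limits Trem2 in PCT (1 probe set below the negative control and 1 just above it), and Fcgr3a lay below the array median in PCT and OMCT.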

Other observations

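Within the NK and T cell list counted above, Cd4 and Cd8a ran opposite ways between the operated tissues. Cd4, which rat macrophages carry as well as T cells, had an intensity of 29.2 in PCT, 498 in OMCT and 157 in PICT, which is -1.60 in PICT minus OMCT on the relative log2 scale. Cd8a had 0.407 in PCT, where it was not above the highest negative control, 31.4 in OMCT and 103 in PICT, a difference of 1.5 in PICT minus OMCT. The Cd3 genes and Cd2 did not pass 2-fold in this comparison, with Cd3g at 0.75, Cd3d at 0.48, Cd3e at -0.18 and Cd2 at -0.25. Among the remaining genes of that list, Klrk1 passed the rule at 1.10. Gzmb at 1.78, Prf1 at 1.19 and Klrd1 at 1.06 were past 2-fold but below the median on all arrays. Nkg7 at 0.65 and Ncr1 at 0.61 were not past 2-fold. From the list of other ITAM-linked receptors, Clec9a, a lectin of dendritic cells that binds dead cells, had an intensity of 5.60 in PCT, 0.394 in OMCT and 33.3 in PICT; it was above the negative control in PICT alone and stayed below the median of that array. Cd4, Cd8a and Clec9a were singled out after their values were seen.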
